A study of Mus musculus with 88 samples.

Results

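The genes described here are 4 opioid receptor genes, Oprm1, Oprd1, Oprk1 and Oprl1, and 2 genes for opioid peptide precursors, Pdyn and Pnoc. They were taken by name from the gene tables of 3 mouse brain regions, and all 6 had a row that could be tested in every region, out of 48811 genes with a row in any table. The 88 RNA-seq libraries came from male mice of the inbred strains C57BL/6Crl (B6) and DBA/2Crl (D2) as labelled, which the methods of the study name C57BL/6NCrl and DBA/2NCrl, 8 weeks of age at dissection, and each library held 1 region of 1 mouse. Mice had gone through chronic social defeat stress (CSDS), in which a mouse is repeatedly attacked by a larger aggressor, or had been handled as controls, and brains were taken 6 to 8 days after the last defeat. Defeated mice were called susceptible or resilient after a social avoidance test. Control mice of the same strain set that limit.

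The medial prefrontal cortex (mPFC) table held 6 control, 6 resilient and 6 susceptible B6 mice with 6 control and 8 susceptible D2 mice. The bed nucleus of the stria terminalis (BNST) table held 5 mice in each group, other than 3 resilient D2 mice. The ventral hippocampus (vHPC) table held 6 control, 8 resilient and 3 susceptible B6 mice with 6 control and 5 susceptible D2 mice. Resilient D2 mice were thus measured in the BNST alone.

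Opioid receptors are G protein coupled receptors that act through inhibitory G proteins, which lower cyclic AMP, open inwardly rectifying potassium channels and close voltage-gated calcium channels. Oprm1 encodes the mu receptor, the main target of morphine. Oprd1 encodes the delta receptor, bound by enkephalins. Oprk1 encodes the kappa receptor, whose ligands are the dynorphins cut from the Pdyn precursor, and this pair is known for aversive states under stress. Oprl1 encodes the nociceptin receptor, which does not bind classical opioids with high affinity, and its ligand is cut from the Pnoc precursor.

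The regions were checked by their markers. Slc17a7, the vesicular glutamate transporter of cortical and hippocampal excitatory neurons, had a median log2 CPM (read counts scaled to the size of the library) of 7.78 in the mPFC, 9.37 in the vHPC and 3.03 in the BNST, Fibcd1, a gene of hippocampal pyramidal cells, of 7.26 in the vHPC, and Gad2, which makes GABA, of 9.05 in the BNST. In the BNST the dissections differed more. Slc17a7 ran from -3.11 to 9.01 and the striatal gene Drd2 from 4.63 to 8.54 there, which bears on the BNST results below. BNST libraries held 11825757 to 25793910 counts, with a median of 15273698. For the mPFC and vHPC, log2 CPM was the deposited form, so the reads behind a value in those regions are unknown. In tissue samples, fewer cells of a type and less RNA per cell cannot be told apart.

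The stretches coding for 3 peptides of these precursors are shown first, since the kappa and nociceptin receptors are told apart by these ligands. Each stretch is read 5′ to 3′ on the coding strand from the GENCODE M21 transcripts of the GRCm38 genome, and the capitals mark the codons for the opening tyrosine or phenylalanine, 2 glycines and phenylalanine.
dynorphin A, Pdyn exon 4, chr2:129688094-129688144, minus strand: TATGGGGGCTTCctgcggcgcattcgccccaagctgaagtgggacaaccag
dynorphin B, Pdyn exon 4, chr2:129688049-129688087, minus strand: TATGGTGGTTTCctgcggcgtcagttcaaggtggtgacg
nociceptin, Pnoc exon 3, chr14:65404842-65404892, minus strand: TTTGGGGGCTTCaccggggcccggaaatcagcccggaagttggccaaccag
Dynorphin A and nociceptin have 17 codons each, and their first 12 bases were identical at 11 positions. The exception was A2T, with positions counted from 1 at the 5′ end of each stretch, dynorphin A first. That base turns the tyrosine codon of dynorphin A into the phenylalanine codon of nociceptin. Dynorphin A and dynorphin B differed at G6T and C9T within the same 12 bases, and neither changes the amino acid.

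On GRCm38, Oprm1 (ENSMUSG00000000766) lies at chr10:6758506-7038198 on the plus strand, with 8037 exonic bases in 22 blocks. It shares 96 of them with Ipcef1 on the opposite strand. Oprd1 (ENSMUSG00000050511) lies at chr4:132110726-132144486 on the minus strand, with 4021 exonic bases. Oprk1 (ENSMUSG00000025905) lies at chr1:5588466-5606131 on the plus strand, with 9151. Oprl1 (ENSMUSG00000027584) lies at chr2:181715016-181720985 on the plus strand, with 3753, and Pdyn (ENSMUSG00000027400) at chr2:129686565-129699844 on the minus strand, with 2887. Pnoc (ENSMUSG00000045731) lies at chr14:65400673-65425472 on the minus strand, with 2157. All 6 are protein coding, and values cover whole genes, so that splice forms are not separated.

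The receptors and precursors ranked differently in each region. Levels of different genes are compared here as log2 CPM per kilobase of exonic length, in which rarely used exons count too. In the mPFC, Oprl1 had the highest mean over the 32 mice, 3.91, followed by Oprd1 at 2.78, Pdyn at 2.59, Oprk1 at 0.88, Oprm1 at -0.24 and Pnoc at -0.32. Among B6 control mice Pdyn and Oprd1 were level, with a mean gap of 0.01 ± 0.29 (SD, n = 6). In the same mice Oprm1 lay above Pnoc by 0.17 ± 0.43, which is within the spread between mice. In D2 controls Pnoc instead lay above Oprm1 in 6 of 6 mice, by 0.31 ± 0.20.

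The vHPC kept Oprl1 on top and put the kappa receptor last. Mean levels per kilobase over 28 mice were 4.75 for Oprl1, 2.53 for Oprd1, 0.67 for Pdyn, 0.47 for Pnoc, 0.19 for Oprm1 and -1.73 for Oprk1. Pdyn and Pnoc did not differ beyond their spread in B6 controls (mean gap 0.04 ± 0.14, SD, n = 6). In D2 controls the neighbours Oprm1 and Pnoc were 0.16 ± 0.15 apart, with Oprm1 the higher in 5 of 6 mice.

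In the BNST the dynorphin precursor led, and the part of striatal RNA in this was not tested. Pdyn had a mean level per kilobase of 4.22 over 28 mice, against 2.238 for Oprl1, 2.07 for Oprd1, 1.82 for Oprm1, 1.697 for Oprk1 and 0.56 for Pnoc. Pdyn was above Oprl1 in 5 of 5 B6 controls, by 2.198 ± 0.63, and in 4 of 5 D2 controls, by 1.42 ± 1.28. The 4 receptors were neighbours in this order, and each gap between neighbours among the controls of a strain was smaller than its SD between mice. In D2 controls Oprk1 and Pnoc also stood within their spread, 0.25 ± 2.227 apart (n = 5).

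**Figure D1:**
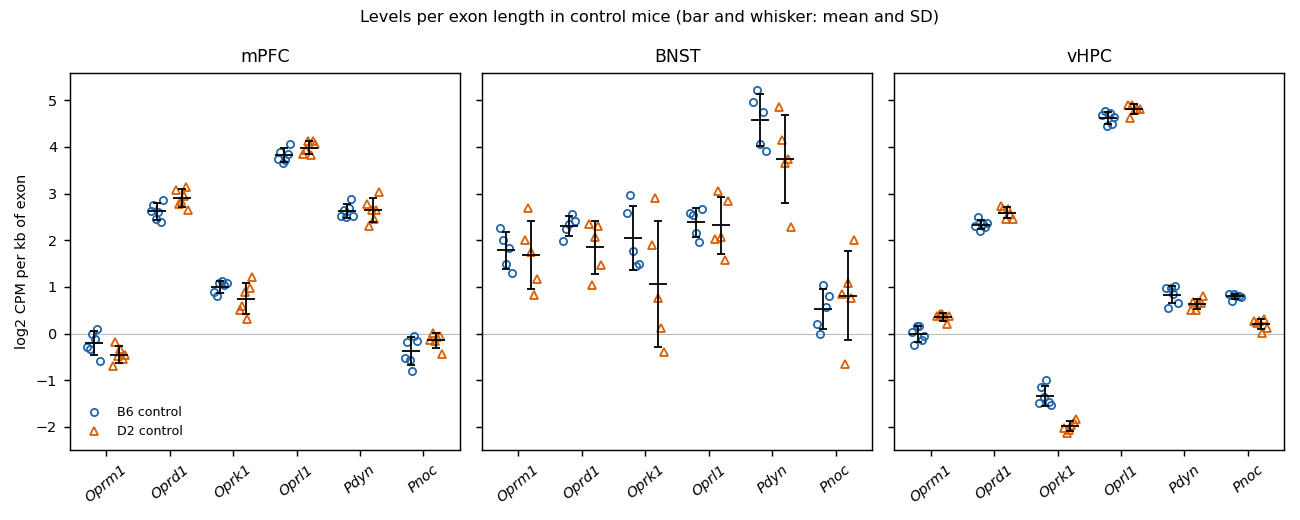
Levels of the 6 genes in the control mice of the 3 regions as log2 CPM per kilobase of exonic length, with 1 point per control mouse and a bar at the mean of each strain. Oprl1 was highest in the mPFC and vHPC, Pdyn in the BNST, and Oprk1 lowest in the vHPC.

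Between regions the values stand side by side without a test, because the tables were made with different library kits and normalized apart. By the place of its mean log2 CPM among all genes in a table, Oprk1 was at percentile 66.0 in the BNST, 52.1 in the mPFC and 23.6 in the vHPC. Pdyn was at percentile 79.0, 52.9 and 31.6 in the same order, and Oprm1 at 64.8, 35.5 and 43.3. Oprl1 ran the other way, at 54.7, 76.9 and 88.1. Oprd1 moved least, at 53.7, 62.4 and 60.4, and Pnoc was low throughout, at 24.1, 14.8 and 24.8. Both an mPFC and a vHPC library came from 7 of the mice, and in each of the 7 Oprk1 and Pdyn read higher in the mPFC while Oprl1 and Pnoc read higher in the vHPC. The mPFC minus vHPC difference in log2 CPM was 2.83 ± 0.48 (SD, n = 7) for Oprk1, 2.177 ± 0.59 for Pdyn, -0.79 ± 0.19 for Oprl1 and -0.67 ± 0.32 for Pnoc. For Oprm1 it was -0.30 ± 0.36 and for Oprd1 0.10 ± 0.23, with mice on both sides of 0.

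The question of the first comparison was whether the 2 strains differ before any defeat. In the vHPC, control D2 mice had less Oprk1 and Pnoc and more Oprm1 and Oprd1 than control B6 mice. These 4 of 6 genes passed the threshold (limma, Benjamini-Hochberg adjusted p under 0.05 over all genes), beside 59.3% of all 19559 genes tested in this comparison, so the count is near the background and says little about these genes as a group.

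Oprk1, the kappa receptor, had a log2 CPM of 1.67, 1.78 and 2.19 (lowest, median and highest of 6) in B6 controls. The 6 D2 controls ran from 1.07 to 1.36. Every D2 control lay below every B6 control, and the difference was -0.65 on the log2 scale (SE 0.08, adjusted p = 3.19e-07), a D2 level of 0.64 times that of B6. Pnoc, the nociceptin precursor, had a log2 CPM of 1.81, 1.92 and 1.96 in B6 controls and of 1.122, 1.355 and 1.417 in D2 controls. Again the groups did not overlap, with a difference of -0.60 (SE 0.08, limma adjusted p = 1.34e-06). Both genes are rare in this tissue, with means of 2.32 to 3.75 CPM over the controls.

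Oprm1, the mu receptor, was the reverse. It had a log2 CPM of 2.75, 2.99 and 3.17 in B6 controls against 3.21, 3.39 and 3.43 in D2 controls, with no overlap. The difference was 0.37 (SE 0.08, limma adjusted p = 0.000527), 1.296 times the B6 level. Oprd1, the delta receptor, had a log2 CPM of 4.21, 4.34 and 4.50 in B6 controls and of 4.47, 4.62 and 4.75 in D2 controls. These ranges touched, although 6 of 6 D2 mice exceeded the B6 mean, and the difference was 0.26 (SE 0.06, limma adjusted p = 0.000947). For Oprl1 the difference was 0.18 (limma adjusted p = 0.0723) and for Pdyn -0.20 (limma adjusted p = 0.115), and neither passed.

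Among susceptible mice, the Oprk1 and Pnoc differences were present again. Susceptible mice are other animals than the controls, though the strains are the same. Oprk1 had a log2 CPM of 1.54, 1.78 and 1.86 in the 3 B6 mice and of 0.77, 1.21, 1.07, 0.87 and 0.88 in the 5 D2 mice, without overlap. The difference was -0.77 (SE 0.11, limma adjusted p = 3.29e-06). Pnoc had a log2 CPM of 1.69, 1.77 and 1.81 against 1.48, 0.95, 1.191, 1.26 and 1.61, again without overlap, and the difference was -0.46 (SE 0.11, limma adjusted p = 0.00163). These 2 genes passed, where 32.7% of all genes did. Oprl1 was 0.27 higher in D2 (limma adjusted p = 0.0655) with every D2 mouse above every B6 mouse, and Pdyn -0.35 (limma adjusted p = 0.0539). Oprm1 and Oprd1 differed by 0.12 (95% interval -0.10 to 0.34) and 0.16 (-0.01 to 0.32) here.

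**Figure D2:**
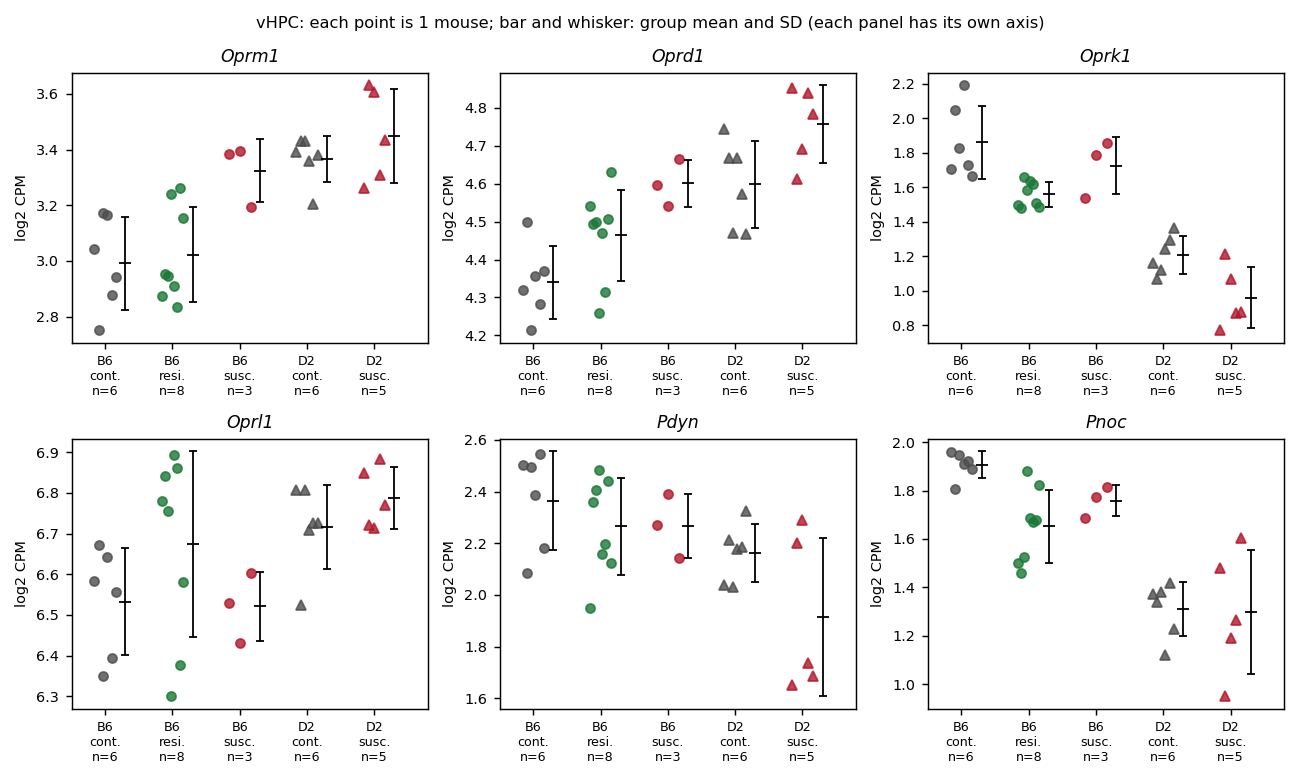
Log2 CPM of the 6 genes in the vHPC, with 1 point per mouse by strain and phenotype and a bar at the group mean. For Oprk1 and Pnoc, D2 controls sit below B6 controls and susceptible D2 mice below susceptible B6 mice, and the 3 susceptible B6 mice sit above the B6 controls for Oprm1 and Oprd1.

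The vHPC libraries were made in 10 sets, by the study's own record, and the authors had adjusted the values for set before deposit. Whether that adjustment kept the differences between groups is not given in the sources used here, and its part in the vHPC differences was not tested. Of the 6 B6 controls, 5 were in sets with no other group, so for them the set and the group cannot be told apart. In 5 sets both strains were present, with phenotypes mixed and 1 or 2 mice of each strain in a set. Just 1 of these sets held a B6 control. Oprk1 was lower in D2 within 5 of 5 sets, by -1.08 to -0.31 on the log2 scale, and Pnoc within 5 of 5, by -0.62 to -0.27. Oprm1 was higher in D2 within 5 of 5, by 0.02 to 0.71. In the sets with Oprm1 differences of 0.02 and 0.06, not every D2 mouse lay above the B6 mouse. Oprd1 was higher within 4 of 5, from -0.09 to 0.40, as was Oprl1, from -0.01 to 0.47, and Pdyn was lower within 4 of 5. With library set as a covariate the control differences rested on the 1 B6 control in a set with D2 mice, so no call is drawn from them. They were -1.01 for Pnoc, -0.77 for Oprk1, 0.66 for Oprm1 and 0.01 for Oprd1. In susceptible mice that fit kept Oprk1, -0.85 (limma adjusted p = 0.0385), and not Pnoc, -0.13 (limma adjusted p = 0.748).

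Markers of other cells moved with strain too. All 7 oligodendrocyte markers were lower in control D2 mice, with a median of -1.37 and a summed level of 830 to 1340 CPM against 2283 to 2549 CPM in B6 controls. All 5 endothelial and all 5 choroid plexus markers were lower as well, while 5 of 7 GABA neuron markers were higher. In susceptible mice 7 of 7 oligodendrocyte markers were lower in D2 (median -0.85, 729 to 925 CPM against 1258 to 1441 CPM), and of the choroid plexus markers 0 of 5 passed. The part of these markers in the receptor and precursor differences was not tested.

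The next comparisons asked what defeat did within each strain, and all of them share the control mice of that strain. In the vHPC of B6 mice, susceptible mice had more Oprm1 and Oprd1 than controls. Oprm1 had a log2 CPM of 3.384, 3.397 and 3.194 in the 3 susceptible mice, each above the highest control at 3.17. The difference was 0.33 (SE 0.10, limma adjusted p = 0.0132), 1.26 times the control level. Oprd1 had a log2 CPM of 4.597, 4.54 and 4.664, each above the highest control at 4.50, and differed by 0.26 (SE 0.08, limma adjusted p = 0.00893). These 2 of 6 genes stood beside 40.6% of all genes. The other 4 had differences from -0.15 for Pnoc (95% interval -0.36 to 0.06) to -0.01 for Oprl1 (-0.23 to 0.21).

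These calls rest on 3 susceptible mice. Without susceptible mouse 1 or 2 the Oprm1 difference was 0.30 each time (limma adjusted p = 0.0576 and 0.0704), and without susceptible mouse 3 the Oprd1 difference was 0.23 (limma adjusted p = 0.0514). No set held both control and defeated B6 mice. With library set as a covariate, which leaves 1 B6 control to carry the comparison, Oprm1 differed by 0.64 and Oprd1 by 0.01. The oligodendrocyte markers were lower in susceptible B6 mice in 7 of 7 cases (median -0.87, 1258 to 1441 CPM against 2283 to 2549 CPM), and 3 of 7 GABA neuron markers were higher, whose part was not tested.

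Resilient B6 mice had less Oprk1 and Pnoc than controls in the vHPC. Oprk1 had a log2 CPM of 1.48, 1.55 and 1.66 (lowest, median and highest of 8) against a lowest control of 1.67, and the difference was -0.30 (SE 0.08, limma adjusted p = 0.0125). Pnoc had a log2 CPM of 1.46, 1.67 and 1.88 against 1.81, 1.92 and 1.96 in controls. Its groups overlapped, with 8 of 8 resilient mice under the control mean, and the difference was -0.25 (SE 0.08, limma adjusted p = 0.0377). In this comparison 10.84% of all genes passed. Pnoc no longer passed without control 1, 3, 4, 5 or 6 or without resilient mouse 1, 2 or 3, with differences from -0.26 to -0.23 (limma adjusted p = 0.0604 to 0.083). With library set as a covariate, which leaves 1 B6 control to carry the comparison, the differences were -0.47 for Oprk1 and -0.55 for Pnoc. With sequencing set as a covariate they were -0.34 (limma adjusted p = 0.104) and -0.06 (limma adjusted p = 0.951), and after quantile normalization, chosen after seeing the data, -0.23 (limma adjusted p = 0.0788) and -0.19 (limma adjusted p = 0.0995). Of the oligodendrocyte markers 4 of 7 were lower in resilient mice (median -0.34), and their part was not tested.

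Susceptible and resilient B6 mice were then set against each other. Oprm1 was higher in susceptible mice, 3.384, 3.397 and 3.194 against 2.84, 2.95 and 3.26 (lowest, median and highest of 8 resilient mice). One susceptible mouse lay within the resilient range, and the difference was 0.30 (SE 0.10, limma adjusted p = 0.0282). It was the only 1 of the 6 genes to pass, beside 27.6% of all genes. It no longer passed without resilient mouse 6 (0.28, limma adjusted p = 0.0508) or susceptible mouse 1 (0.27, limma adjusted p = 0.102) or 2 (0.27, limma adjusted p = 0.131), with the library set (0.29, limma adjusted p = 0.241) or sequencing set (0.28, limma adjusted p = 0.0719) as a covariate, or when fitted on these groups alone (limma adjusted p = 0.0832). Between these groups 5 of 7 oligodendrocyte markers were lower and 4 of 7 GABA neuron markers higher in susceptible mice. Their part was not tested.

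In the vHPC of D2 mice limma called 0 of the 6 genes between susceptible mice and controls, where 4.28% of all genes were called. An unadjusted p under 0.05 was reached by 3 of the 6 and by 3444 of all 19559 genes. Oprk1 was the nearest, with 4 of 5 susceptible mice below the control mean, a difference of -0.25 (SE 0.09, 95% interval -0.43 to -0.07, limma adjusted p = 0.122). Without susceptible mouse 2, the highest for Oprk1 at 1.21, it was -0.31 (limma adjusted p = 0.0481). Oprd1 differed by 0.16 (limma adjusted p = 0.2) and Pdyn by -0.25 (limma adjusted p = 0.263). Pdyn split among the susceptible D2 mice, at 1.65, 1.74 and 1.69 in 3 mice and 2.202 and 2.29 in the other two, against 2.03 to 2.33 in controls.

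Whether defeat acted differently in the 2 strains was tested as an interaction. In the vHPC it passed for 0 of the 6 genes and for 0.782% of all genes with limma. At an unadjusted p under 0.05 these were 0 of the 6 and 3600 of all 19559 genes. The estimate furthest from 0 was that of Oprm1, -0.25 (95% interval -0.53 to 0.03, limma adjusted p = 0.315). The Oprm1 rise in susceptible B6 mice is therefore not shown to be absent from D2 mice, in which the difference was 0.08 (-0.10 to 0.27).

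Oprm1 and Oprd1 were both higher in D2 controls and in susceptible B6 mice of the vHPC, comparisons that share the B6 controls, and their promoters are given for that reason. RefSeq tables for GRCm38.p6 list 250 bases before and 50 after each start, and hold 9 entries for 4 of the 6 genes. The Oprd1 entry and 1 of 3 Oprm1 entries are shown 5′ to 3′ on the gene's strand, with the capitals marking motifs found on either strand.
Oprm1, chr10:6788320-6788619, plus strand: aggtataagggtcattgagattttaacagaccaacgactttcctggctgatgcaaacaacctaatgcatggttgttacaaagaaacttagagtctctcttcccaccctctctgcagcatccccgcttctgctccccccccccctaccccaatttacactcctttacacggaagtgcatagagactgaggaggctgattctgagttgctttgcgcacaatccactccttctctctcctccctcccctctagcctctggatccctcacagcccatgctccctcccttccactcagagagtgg
Oprd1, chr4:132144437-132144736, minus strand: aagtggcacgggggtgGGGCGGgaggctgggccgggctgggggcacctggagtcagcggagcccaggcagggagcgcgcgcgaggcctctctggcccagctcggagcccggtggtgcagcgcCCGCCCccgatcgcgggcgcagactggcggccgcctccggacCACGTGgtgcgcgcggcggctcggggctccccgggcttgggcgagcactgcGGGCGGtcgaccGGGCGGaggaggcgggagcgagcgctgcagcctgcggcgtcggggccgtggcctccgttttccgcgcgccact
The motifs searched were the E-box CACGTG, found in 2349 of the 32851 promoters of this length, the GC box GGGCGG, in 35.7%, the cAMP response element TGACGTCA, in 1.79%, and the TATA box TATAAA, in 13.6%. The Oprd1 entry held 4 GC boxes and 1 E-box, and the Oprm1 entry held 0 of these motifs. The Oprd1 entry was 79.3% G and C, at percentile 98.7 of all promoters, and the Oprm1 entry 52.0%, near the median of 52.7%. A match is a run of letters in this window, and binding was not measured.

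In the mPFC the 6 genes moved little. Oprd1 was higher in control D2 than in control B6 mice. It had a log2 CPM of 4.402, 4.62 and 4.87 (lowest, median and highest of 6) in B6 and of 4.67, 4.90 and 5.14 in D2. The ranges overlapped, 6 of 6 D2 mice exceeded the B6 mean, and the difference was 0.29 (SE 0.09, limma adjusted p = 0.0179). It was the only 1 of the 6 to pass, against 27.8% of all 18946 genes. Oprl1 differed by 0.17 (SE 0.08, limma adjusted p = 0.124), and Oprm1 by -0.24 (SE 0.13, limma adjusted p = 0.177), which is the opposite sign to the vHPC.

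The Oprd1 call between mPFC controls depended on single mice, while the difference ran from 0.24 to 0.34 as each mouse of the region was left out. It was 0.24 without B6 control 5 (limma adjusted p = 0.0543), 0.25 without D2 control 1 (limma adjusted p = 0.0506) and 0.24 without D2 control 5 (limma adjusted p = 0.0574), and did not pass when only these groups were fitted (limma adjusted p = 0.0565). In the mPFC 8 libraries had a Drd2 log2 CPM of 1 or more, 3 of them B6 controls, and Drd2 is a gene of striatal neurons. Without these 8 the Oprd1 difference was 0.21 (limma adjusted p = 0.16), an alternative chosen after seeing the data. Of the striatal markers, 2 of 8 were lower in D2 controls (median -0.91, summed level 206 to 451 CPM against 258 to 580 CPM in B6 controls). Of the oligodendrocyte markers 7 of 7 were lower (median -0.90, 697 to 1029 CPM against 1075 to 2071 CPM), and the part of the latter was not tested.

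Oprk1 was lower in susceptible D2 than in susceptible B6 mice in the mPFC. It had a log2 CPM of 3.86, 4.32 and 4.50 in the 6 B6 mice and of 3.09, 3.67 and 4.52 in the 8 D2 mice. One D2 mouse was above all B6 mice, 7 of 8 were under the B6 mean, and the difference was -0.53 (SE 0.17, limma adjusted p = 0.0236), 0.69 times the B6 level. It stood alone among the 6 genes, with 17.5% of all genes passing. Without the 8 libraries high in Drd2 it was -0.64 (limma adjusted p = 0.00359). Of those libraries D2 susceptible mouse 7 alone was in these groups, and leaving out just that mouse also gave -0.64. It no longer passed without B6 susceptible mouse 1, 3 or 6 or D2 susceptible mouse 1 or 4, with differences of -0.50 to -0.44 (limma adjusted p = 0.0515 to 0.0598), nor when only these groups were fitted (limma adjusted p = 0.0953). Between controls the Oprk1 difference was -0.26 (SE 0.18, 95% interval -0.62 to 0.11).

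**Figure D3:**
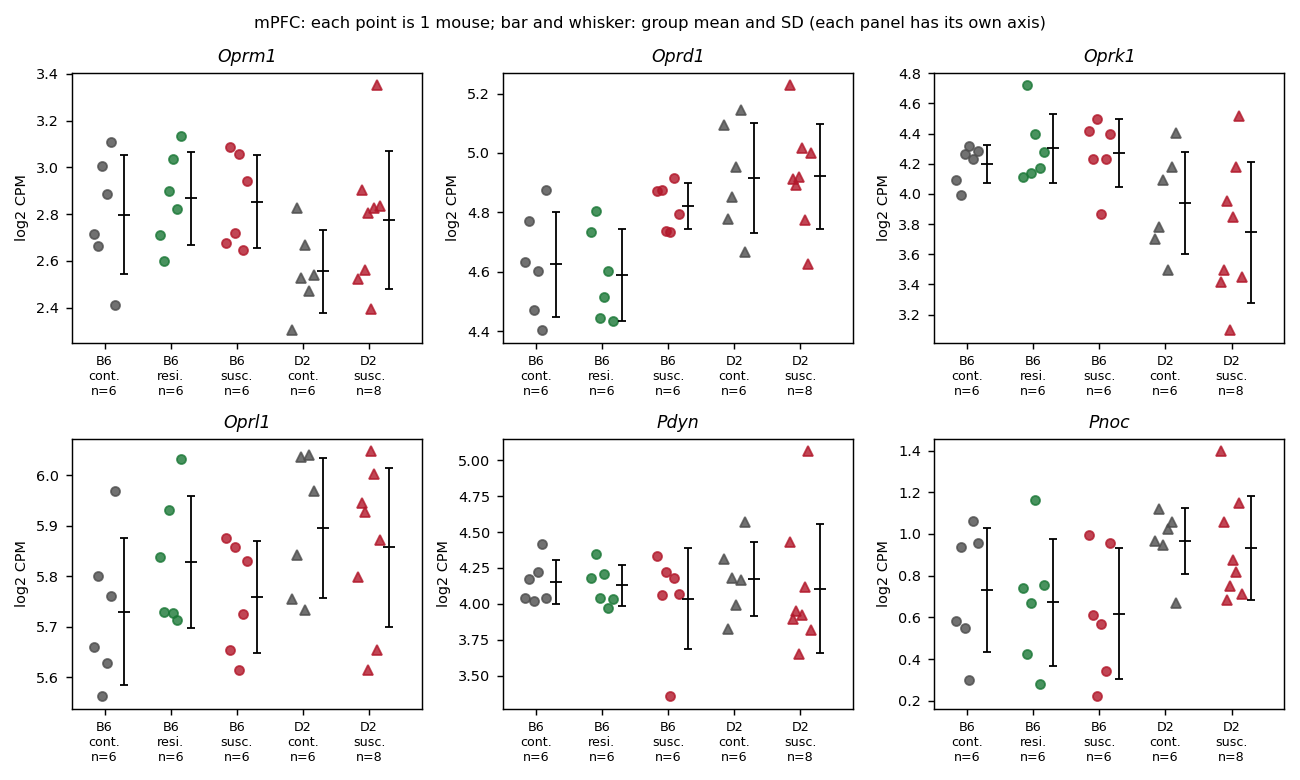
Log2 CPM of the 6 genes in the mPFC, with 1 point per mouse by strain and phenotype and a bar at the group mean. Oprd1 of control D2 mice lies mostly above that of control B6 mice, and Oprk1 spreads more widely in D2 mice, from 3.09 to 4.52 in the susceptible group.

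Defeat changed none of the 6 genes past the threshold in the mPFC. Between resilient B6 mice and controls limma called 0 of the 6 and 0% of all genes. At an unadjusted p under 0.05 were 0 of the 6 and 731 of all 18946 genes. Between susceptible B6 mice and controls limma called 0 of the 6 and 2.22% of all genes. Here an unadjusted p under 0.05 was reached by 3441 of all 18946 genes and by 1 of the 6. That gene was Oprd1, at 4.73, 4.83 and 4.91 in susceptible mice, all above the control mean of 4.63, with a difference of 0.20 (SE 0.09, 95% interval 0.01 to 0.38, limma adjusted p = 0.252). Against resilient mice limma again called 0 of the 6, and 2.02% of all genes passed. Oprd1 was the 1 gene of the 6 at an unadjusted p under 0.05 (0.23, SE 0.09, limma adjusted p = 0.155), beside 3719 of all genes. In D2 mice limma called 0 of the 6 genes and 0% of all genes between susceptible mice and controls. Unadjusted p values under 0.05 were found for 0 of the 6 and 734 of all genes. The interaction gave 0 of 6 by both measures, with 0% of all genes passing and 1766 at an unadjusted p under 0.05. The 95% intervals of the mPFC tests reached 0.152 to 0.497 on either side of the estimate on the log2 scale.

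In the BNST the 6 genes varied widely from mouse to mouse within groups. The SD within groups was 1.02 for Pnoc, 0.843 for Oprk1, 0.653 for Pdyn, 0.477 for Oprm1 and 0.425 for Oprd1 and Oprl1, on the log2 scale, where the median of all genes was 0.420. In the vHPC the same SD was 0.107 for Oprd1 to 0.197 for Pdyn (median of all genes 0.141), and in the mPFC 0.139 for Oprl1 to 0.316 for Oprk1 (median 0.151). Oprk1 spanned a log2 CPM of 2.79 to 6.17 over the 28 BNST mice. Pnoc rested on 9 to 239 counts a library.

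**Figure D4:**
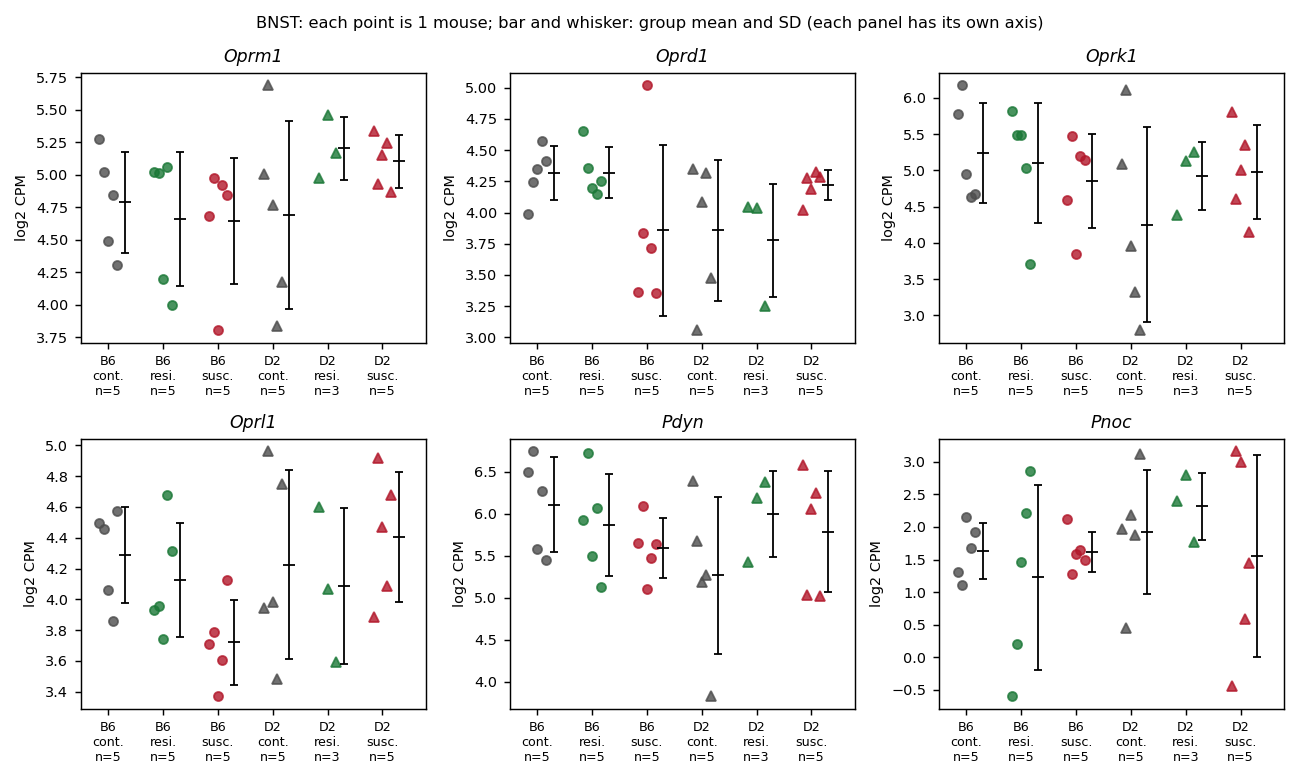
Log2 CPM of the 6 genes in the BNST, with 1 point per mouse by strain and phenotype and a bar at the group mean. The groups overlap for nearly every gene, and the D2 controls spread from 2.79 to 6.10 for Oprk1.

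edgeR called 0 of the 6 genes in each of the 11 BNST comparisons, and so did DESeq2 and limma. Of all 17515 genes edgeR called 0% between resilient or susceptible mice and controls of either strain, 0% between susceptible and resilient D2 mice and 0% in either interaction, and 0.00571% between susceptible and resilient B6 mice. Between the strains it called 2.51% in controls, 5.18% in susceptible mice and 1.55% in resilient mice. DESeq2 called 223 genes in the interaction with susceptibility, where edgeR called 0 and 2004 genes had an unadjusted p under 0.05, and 42 genes between susceptible and resilient B6 mice, where edgeR called 1. An unadjusted p under 0.05 was reached by 1 of the 6 genes in 2 comparisons and by 0 in the others. Over all 17515 genes it was reached by 1115 between susceptible and control B6 mice. Between susceptible mice of the 2 strains it was reached by 3221. The 95% intervals reached 0.526 to 1.75 on either side of the estimate. For each of the 6 genes they reached further than any vHPC difference of that gene, so differences of that size could be missed here.

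Oprl1, the nociceptin receptor, gave both of those p values. It had a log2 CPM of 3.71, 3.79, 3.37, 3.61 and 4.13 in susceptible B6 mice, of 4.49, 4.45, 4.06, 3.86 and 4.58 in B6 controls and of 3.88, 4.92, 4.47, 4.09 and 4.68 in susceptible D2 mice. The susceptible B6 mice were the low group, with 1 mouse, at 4.13, inside the range of both other groups. Against B6 controls the difference was -0.58 (SE 0.26, edgeR adjusted p = 0.752). Susceptible D2 minus susceptible B6 mice gave 0.72 (SE 0.26, edgeR adjusted p = 0.109), the smallest adjusted p of the 66 BNST tests.

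Single BNST libraries stood apart in their tissue content and in these genes. Susceptible B6 mouse 3 had the highest summed striatal markers of the region, 8835 CPM, and it had the lowest Oprm1 of its group, 3.80, with 4.68 to 4.97 in the others, and the highest Oprd1, 5.02, with 3.35 to 3.83 in the others. D2 control 5 had the lowest striatal sum, 979 CPM, the highest Tcf7l2, a gene of thalamic neurons, at a log2 CPM of 8.03, and the lowest Oprk1 and Pdyn of all 28 mice, 2.79 and 3.82. D2 control 2 had the lowest Drd2, 4.63, and high Oprm1 and Oprk1, 5.69 and 6.10. Without D2 controls 2 and 5, chosen after seeing the data, the Oprl1 difference between susceptible mice of the 2 strains, which does not use them other than for the spread, was 0.72 (edgeR adjusted p = 0.0354).

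**Figure D5:**
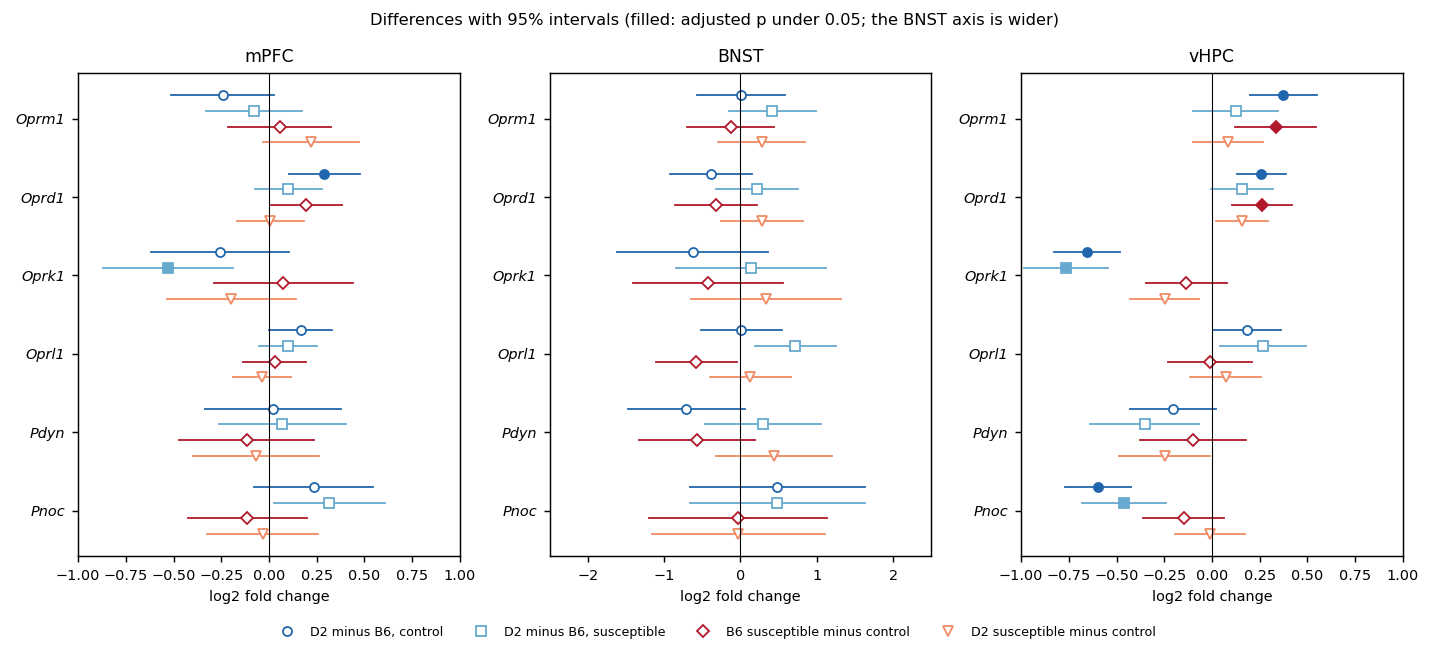
Log2 differences of the 6 genes in 4 comparisons of each region (D2 minus B6 in controls and in susceptible mice, susceptible minus control in B6 and in D2), with bars for the 95% interval, filled points for an adjusted p under 0.05 and a wider axis for the BNST. Intervals are widest in the BNST, and the called strain differences of the vHPC are negative for Oprk1 and Pnoc and positive for Oprm1 and Oprd1.

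Penk and Pomc, the precursors of enkephalins and of beta-endorphin, complete the ligands. Penk was most abundant in the BNST, with group means of 8.80 to 9.92 log2 CPM, against 5.41 to 6.13 in the mPFC and 2.234 to 3.09 in the vHPC. In vHPC controls, where 59.3% of all genes passed, both were higher in D2, Penk by 0.53 (SE 0.16, limma adjusted p = 0.00668) and Pomc by 0.75 (SE 0.17, limma adjusted p = 0.000515). Penk was also higher in susceptible than in control B6 mice, by 0.50 (SE 0.20, limma adjusted p = 0.0484), and Pomc in susceptible D2 than in susceptible B6 mice, by 0.61 (SE 0.22, limma adjusted p = 0.0306). In these comparisons 40.6% and 32.7% of all genes passed. The Penk difference rests on 3 susceptible B6 mice, none of which shared a set with a B6 control, and the part of set was not tested. In the mPFC and BNST neither passed in any comparison. The largest mPFC difference of Penk, in susceptible against control B6 mice, was -0.73 (SE 0.32, limma adjusted p = 0.221). B6 controls 3, 4 and 5 were among the mPFC libraries high in Drd2, and no susceptible B6 mouse was. The part of striatal RNA in this difference was not tested.

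Of the 6 genes that cut and protect the precursors, Scg5, which encodes the 7B2 chaperone of the convertase PC2, was higher in D2 each time. In controls the difference was 1.83 in the vHPC (SE 0.07, limma adjusted p = 3.06e-17), 1.01 in the mPFC (SE 0.05, limma adjusted p = 3.74e-15) and 0.99 in the BNST (SE 0.12, edgeR adjusted p = 2.11e-06). Scg5 and Cpe were the only processing genes past the threshold in the mPFC controls and in any BNST comparison. Of all genes, 27.8% passed in the mPFC controls and at most 5.18% in a BNST comparison. In vHPC controls, where 59.3% of all genes passed, 2 of the 6 were higher, Scg5 and Pcsk1n, a PC1 inhibitor precursor (0.83, SE 0.15, limma adjusted p = 3.47e-05), and 2 were lower, Pam, which amidates peptides (-0.26, SE 0.05, limma adjusted p = 7.83e-05), and Pcsk2, which encodes PC2 (-0.15, SE 0.04, limma adjusted p = 0.00107). Cpe, the carboxypeptidase that trims peptides, was lower in D2 in the mPFC controls (-0.26, SE 0.05, limma adjusted p = 0.000397) and in susceptible D2 mice of the BNST (-1.02, SE 0.14, edgeR adjusted p = 2.13e-05). Against vHPC controls, Scg5 was higher in resilient B6 mice (0.63, SE 0.07, limma adjusted p = 2.7e-07) and susceptible B6 mice (0.74, SE 0.09, limma adjusted p = 7.3e-07). In susceptible D2 mice Scg5 was higher by 0.47 (SE 0.08, limma adjusted p = 0.000311). Of all genes 10.84%, 40.6% and 4.28% passed in these comparisons, in the same order. No set held both control and defeated B6 mice, just 1 held both for D2, and the part of set was not tested. The median of the 6 was -0.03 in vHPC controls, with 0.01 over all genes.

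Of the 6 enzymes that degrade opioid peptides, 4 were higher and 1 lower in D2 among vHPC controls, beside 59.3% of all genes passing in either direction. Ece1, an endothelin converting enzyme that also cuts opioid peptides, was 0.39 higher (SE 0.07, limma adjusted p = 1.68e-05) and Mme, neprilysin, 0.38 (SE 0.09, limma adjusted p = 0.00125). Ctsl, cathepsin L, was the lower one (-0.43, SE 0.07, limma adjusted p = 1.98e-05). In the mPFC controls 3 of 6 were higher in D2 beside 27.8% of all genes passing, Ctsl among them (0.25, SE 0.06, limma adjusted p = 0.00394). Ctsl thus had opposite signs in the 2 regions.

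Of the genes that couple and regulate the receptors, 3 of 14 were higher and 3 lower in D2 among vHPC controls, a smaller share than the 59.3% of all genes. Rgs9, a regulator of G protein signalling that is abundant in striatal neurons, was -1.53 (SE 0.06, limma adjusted p = 8.96e-18), Rgs19 -0.37 (SE 0.06, limma adjusted p = 3.28e-06), and Grk2, a kinase that phosphorylates active receptors, 0.24 (SE 0.04, limma adjusted p = 1.67e-05). In the mPFC controls 2 of 14 were higher and 3 lower, beside 27.8% of all genes passing in either direction. Among them were Grk5 at 0.50 (SE 0.07, limma adjusted p = 1.29e-06) and Rgs9 at -1.26 (SE 0.36, limma adjusted p = 0.00875). Rgs9 is also among the striatal markers counted above, and the part of striatal RNA in its mPFC difference was not tested. Of the 8 effector genes in the vHPC, 3 were higher and 2 lower in D2 controls, which is near that share. The N-type calcium channel gene Cacna1b was 0.60 higher (SE 0.06, limma adjusted p = 6.15e-09) and the potassium channel gene Kcnj9 0.49 higher (SE 0.06, limma adjusted p = 6.94e-08), while Kcnj3 was lower (-0.21, SE 0.04, limma adjusted p = 2.66e-05). Cacna1b was also higher in the mPFC controls (0.54, SE 0.08, limma adjusted p = 4.62e-06) and in the vHPC of susceptible B6 mice against controls (0.47, SE 0.07, limma adjusted p = 4.06e-05). In the latter comparison 40.6% of all genes passed, no set held both groups, and the part of set was not tested. No coupling, effector or degrading gene passed with edgeR in the BNST.

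For comparison, 9 further neuropeptide precursors were counted. In vHPC controls 4 were higher and 2 lower in D2, again near the 59.3% of all genes, with Tac2, the neurokinin B precursor, at 1.05 (SE 0.10, limma adjusted p = 1.01e-09) and Cartpt, the CART peptide precursor, at -2.38 (SE 0.24, limma adjusted p = 5.35e-09). In the mPFC controls 2 of 9 were higher, beside 27.8% of all genes passing in either direction, Vip (0.28, SE 0.07, limma adjusted p = 0.00437) and Tac2 (0.50, SE 0.12, limma adjusted p = 0.00196).

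The genes whose values followed each of the 6 most closely from mouse to mouse are given as a description, after group means were removed. In the vHPC (28 libraries, 18382 genes) Oprl1 was followed by Sv2b, a synaptic vesicle protein gene, with r = 0.97 and rho = 0.94, and r = 0.95 without the 2 libraries farthest from the median. Oprm1 was followed by Cdc42bpa (r = 0.89, rho = 0.90) and Pnoc by Wdr83os (r = 0.85, rho = 0.83). In the BNST (28 libraries, 16001 genes) Oprk1 was followed by the serotonin receptor gene Htr2c (r = 0.93, rho = 0.90) and Pdyn by Robo1 (r = 0.92, rho = 0.94). In the mPFC (32 libraries, 17792 genes) Oprd1 was followed by Rims3 (r = 0.90, rho = 0.86) and Pdyn by Gnal (r = 0.85, rho = 0.78, and r = 0.71 without 2 libraries). Libraries share tissue content and preparation sets, and each of these is the highest of many genes.

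Among the 6 genes themselves, receptor and ligand of the kappa system went together in 2 regions by this description. Oprk1 and Pdyn had r = 0.77 and rho = 0.80 in the BNST and r = 0.68 and rho = 0.51 in the mPFC, but r = 0.28 and rho = 0.30 in the vHPC. This was not particular to that pair. Oprm1 and Pdyn had r = 0.68 and rho = 0.73 in the BNST and r = 0.62 and rho = 0.57 in the vHPC, with r = 0.08 in the mPFC. Oprm1 and Oprk1 had r = 0.84 in the BNST and 0.09 in the mPFC. Oprm1 and Oprd1 had r = -0.75 and rho = -0.72 in the mPFC. Oprl1 and its ligand precursor Pnoc had r = 0.15, 0.32 and -0.26 in the mPFC, BNST and vHPC.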

How the data were processed

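RNA-seq was analysed for 88 libraries, 32 of the mPFC, 28 of the BNST and 28 of the vHPC, each from 1 mouse, grouped by strain and CSDS phenotype from the labels. The authors aligned reads to GRCm38 and counted them on exons with HTSeq (listed as 0.6.11). The deposited mPFC and vHPC values are log2 CPM from voom, which the authors made after a filter on low genes and corrected by ComBat (mPFC: library set, vHPC: library set and sequencing set). The deposited BNST values are raw counts. The effect of aligning DBA/2 reads to a C57BL/6 genome was not tested.

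Rows were matched by Ensembl ID to GENCODE M21, which gave a symbol for 99.54% to 99.62% of the genes tested. BNST counts were filtered (1 CPM in 6 libraries), scaled with TMM and fitted with edgeR 4.0.16 (robust quasi-likelihood), and printed as log2 CPM with a prior count of 0.5. The mPFC and vHPC values were fitted with limma 3.58.1 (robust empirical Bayes). Each region was fitted on its own with 1 mean per group, and two-sided p values were adjusted by Benjamini-Hochberg over all genes of a comparison, 25 comparisons in all. DESeq2 1.42.0, sva 3.50.0, R 4.3.3, Python 3.11.15 and pandas 2.3.3 were also used. The fits were tested on simulated data. The genes and lists were chosen with earlier results of these data known. From each pathway list at most 4 genes past the threshold with the smallest adjusted p were named, and as like genes up to 3 per gene and region. Library and sequencing sets came from the study's record.

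Alternatives were covariates, moderation, filters, normalization, the samples fitted and leaving out each mouse. Depth is known for the BNST alone, so precision was taken from the spread between mice.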

Additional observations from a re-analysis of the deposited data

Results flagged for a closer look

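Of 84 groups of 4 to 10 mice, 5 held a mouse far from the rest of its group by Dixon's test, where chance gives about 1 in 20. In the BNST, susceptible B6 mouse 3 was low for Oprm1, at a log2 CPM of 3.801 with 4.683 to 4.974 in the other 4, and high for Oprd1, at 5.018 with 3.351 to 3.835 in the others. This is the BNST library with the most striatal marker RNA, 8835 CPM in sum, and the part of that was not tested. In the vHPC, D2 control 5 was low for Oprm1, 3.205 with 3.36 to 3.431 in the others, and D2 control 2 was low for Oprl1, 6.524 with 6.708 to 6.808 in the others. Without D2 control 2 the Oprl1 difference between control strains in the vHPC was 0.22 (limma adjusted p = 0.0373). In the mPFC, susceptible B6 mouse 4 was low for Pdyn, 3.355 with 4.06 to 4.336 in the others.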

How the results depend on the processing

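The comparisons were not paired, because the groups compared within a region hold different mice. No difference changed its sign across the threshold. Over settings other than leaving out mice, 1024 single-gene differences stayed on their side of the threshold, 19 lost and 6 gained a call, and over leave-outs 4335 stayed, 22 lost and 11 gained. With library set as a covariate, the vHPC comparisons with B6 controls rest on 1 B6 control, and their calls are left out here. Among other vHPC comparisons this setting took the calls over all genes from 5404 to 0 in susceptible against resilient B6 mice. Between susceptible strains it took them from 6389 to 739. The number of the 6 genes past the threshold went from 1 to 0 and from 2 to 1 in the same order. Sequencing set as a covariate gave 0 for resilient mice against controls and 0 for susceptible against resilient mice. For resilient mice against controls, a trended, not robust fit gave 1 and quantile normalization (chosen after seeing the data) 0. Fits on the compared groups alone gave 0 for susceptible against resilient B6 mice of the vHPC and 0 for the mPFC strain difference in controls and in susceptible mice. Without libraries high in Drd2 the mPFC control strains gave 0, and without BNST libraries low in Drd2 the susceptible strains gave 1 in place of 0, both chosen after seeing the data. Leaving out 1 mouse gave 0 to 2 for the mPFC control strains, 0 to 1 for the mPFC susceptible strains, 1 to 2 for resilient and for susceptible B6 mice against controls in the vHPC, 0 to 1 for susceptible against resilient B6 mice and for susceptible D2 mice against controls, 4 to 5 for the control strains and 2 to 3 for the susceptible strains. It left the numbers of the other 17 comparisons as they were.

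Over all alternatives, the Oprk1 difference between vHPC susceptible strains ran from -0.86 to -0.70 (limma adjusted p = 7.04e-07 to 0.0385) and passed in all 34. The Pnoc difference between vHPC control strains ran from -1.01 to -0.51 and passed in all 34 too. Its value of -1.01 came with library set as a covariate, a fit that rests on 1 B6 control. The vHPC control differences of Oprk1, Oprm1 and Oprd1 passed in 33 of 34, all but that fit. The Pnoc difference in resilient B6 mice passed in 23 of 35, and the cause of the losses was not tested. In the BNST, DESeq2 called 660, 1450 and 490 genes between control, susceptible and resilient strains where edgeR called 439, 907 and 272, 223 in the interaction with susceptibility where edgeR called 0, and 42 between susceptible and resilient B6 mice where edgeR called 1, with 0 of the 6 genes either way. The mouse ID prefix as a covariate gave no value between strains, since no prefix is shared by both. Medians in place of means moved no level by more than 1 SD. Depth limits the BNST values of Pnoc most, with 9 counts in the lowest library.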
